A study of Mus musculus with 27 samples.

Results

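The genes described here encode the proteins of the cytosolic ribosome. They were taken by symbol: protein-coding mouse genes named Rpl or Rps with a number, plus the stalk genes Rplp0, Rplp1 and Rplp2 and the small-subunit gene Rpsa, without pseudogenes and without the Rps6k kinases. Of 89 matching symbols 83 were protein coding, and 81 of these reached 10 counts in at least 2 libraries in each of the 2 count tables. They comprise 49 large-subunit and 32 small-subunit genes, out of 53412 identifiers in the minocycline table and 55421 in the enrichment table. Rpl3l and Rpl10l, paralogues known from muscle and testis, missed the count minimum. All 81 genes also passed the filter on low counts used for testing.

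A ribosome is built from a small subunit, which reads the mRNA, and a large subunit, which joins the amino acids. Its proteins are made in matched amounts, and most of their mRNAs begin with a run of pyrimidines (a 5′ terminal oligopyrimidine, or TOP, motif) through which the mTORC1 pathway adjusts their translation. Their mRNAs are short and among the most abundant of a cell, microglia included.

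The libraries are RNA-seq of CD11b+ cells sorted from the prefrontal cortex (PFC) or the hippocampus (HC) of C57BJ6 mice. CD11b is an integrin chain on microglia and other myeloid cells. In the minocycline experiment the groups were naive controls (NAIVE, 2 PFC and 2 HC libraries), mice put through the CUMS protocol, which is chronic unpredictable mild stress (2 PFC and 3 HC), and mice given CUMS and the tetracycline antibiotic minocycline (CUMS_M, 3 PFC and 3 HC). In the enrichment experiment every mouse went through CUMS, with vehicle (VEH) or with environmental enrichment (EE), and each group had 3 libraries per region. No vehicle is named for the CUMS group of the minocycline experiment, and no unstressed group belongs to the enrichment experiment. The labels give neither age nor sex, name no batch, and do not say that replicates came from separate animals. Any p-value here reflects the spread among these libraries, which may be technical.

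Totals per library lay between 7.87 M and 15.3 M counts (minocycline table) and between 19.5 M and 23.9 M counts (enrichment table). The 12 microglial markers examined were all detected, with a summed level of 37843 to 61193 CPM (counts scaled to a common library total, per M counts) over the 27 libraries. Markers of other cells differed between libraries. Choroid plexus markers summed to 564 to 1929 CPM in the HC libraries of the minocycline experiment, but to 0.613 to 215 CPM in HC VEH, and they reached 736 CPM in PFC VEH and 1139 CPM in PFC EE. In the minocycline experiment they followed the region labels except for 1 PFC CUMS_M library at 609 CPM, and in the enrichment experiment they did not follow them. In bulk samples, fewer cells of a type and less RNA per cell cannot be told apart.

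Promoter sequences give the letters around the annotated start of these genes. RefSeq promoter windows on GRCm38.p6 were matched for 61 of the 81 genes, each 250 bases before to 50 after the first transcribed base. A run of at least 8 letters that are C or T, on the gene's strand and within 50 bases of the start, was present for 51 of the 61 (83.6%), against 39.3% of all 27025 symbols with a window. The letters CCGGAA, searched on either strand of the whole window and free to overlap such a run, were present for 35 of 61 (57.4%), against 16.7% of all symbols. A symbol with several windows was counted if any of them held the motif. These matches describe letters and not binding sites. A run counted here need not begin at the first transcribed base, as a TOP motif does. The 8 examples below run from 15 bases before the start through 15 bases from it, on the gene's strand, with the longest C or T run in capitals. They were chosen to set a paralogue pair, the genes that stood apart in the counts (Rps10, Rpl24, Rps27l, Rpl4) and ordinary members side by side.

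Rps27, chr3:90213634-90213663, minus strand: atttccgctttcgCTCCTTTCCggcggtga
Rps27l, chr9:66946071-66946100, plus strand: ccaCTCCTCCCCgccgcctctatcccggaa
Rps10, chr17:27635230-27635259, minus strand: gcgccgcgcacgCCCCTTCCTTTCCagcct
Rpl4, chr9:64173372-64173401, plus strand: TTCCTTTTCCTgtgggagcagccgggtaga
Rps6, chr4:86857353-86857382, minus strand: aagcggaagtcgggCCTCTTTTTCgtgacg
Rplp2, chr7:141447636-141447665, plus strand: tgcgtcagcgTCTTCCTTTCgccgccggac
Rplp0, chr5:115559452-115559481, plus strand: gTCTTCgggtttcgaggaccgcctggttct
Rpl24, chr16:55966260-55966289, plus strand: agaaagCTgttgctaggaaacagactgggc

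The start is that of RefSeq. For Rps10 and Rplp2 it lies 1425 and 281 bases inside the gene as GENCODE bounds it, and for the other 6 at most 45 bases inside. In Rps27, Rps10, Rps6 and Rplp2 the run spans the RefSeq start. In Rps27l, Rpl4 and Rplp0 it lies before the start, and that of Rplp0 has 5 letters. The Rpl24 window has no run longer than 2 letters.

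The 81 genes together took 2.38% to 3.38% of the counts of a library in the minocycline experiment and 1.41% to 3.87% in the enrichment experiment. Counting error is small beside this: the widest 95% Wilson interval of a library's share spanned 0.0239 percentage points, covering counting error only. Within the enrichment experiment the largest shares were those of PFC VEH library 1 (3.87%) and HC VEH library 1 (2.99%), and the smallest was that of PFC VEH library 3 (1.41%). Group means were 2.47% ± 1.26 in PFC VEH, 1.92% ± 0.417 in PFC EE, 2.19% ± 0.690 in HC VEH and 1.91% ± 0.122 in HC EE (SD, n = 3 each). In the minocycline experiment they were 2.77% ± 0.336 in PFC NAIVE (SD, n = 2), 2.87% ± 0.644 in PFC CUMS (n = 2), 3.06% ± 0.345 in PFC CUMS_M (n = 3), 3.0% ± 0.527 in HC NAIVE (n = 2), 2.79% ± 0.131 in HC CUMS (n = 3) and 2.70% ± 0.453 in HC CUMS_M (n = 3). In each treatment comparison within a region, the ranges of the compared groups overlapped. The libraries within PFC VEH spanned more than any pair of group means.

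**Figure D1:**
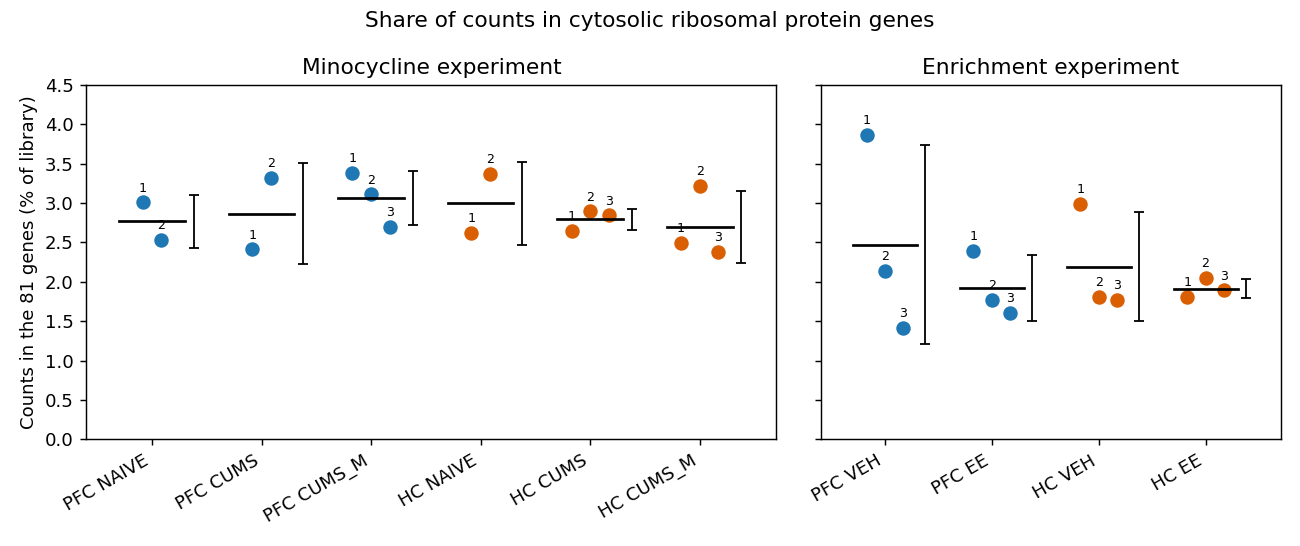
Share of each library's counts that fell in the 81 ribosomal protein genes (y axis, percent), by group; points are libraries labelled with their replicate number (blue PFC, orange HC), lines are group means and bars beside them ±1 SD. PFC VEH spans 1.41% to 3.87% within 1 group, and the compared groups overlap.

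Nearly all members moved together from library to library. In PFC VEH library 1 all 80 genes other than Rps10 lay above their own mean over the 12 enrichment libraries, with a median deviation of 1.06 on the log2 scale. In PFC VEH library 3 the median deviation was -0.65 and 1 of 80 genes lay above its mean. HC VEH library 1 stood at 0.64 with 80 of 80 genes above. The same pattern was present at a smaller size in the minocycline experiment, where PFC CUMS library 1 stood at -0.32 (2 of 80 above) and HC NAIVE library 2 at 0.30 (79 of 80 above). Rps10 was left out of these counts because its values differ between regions, as described further on.

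**Figure D2:**
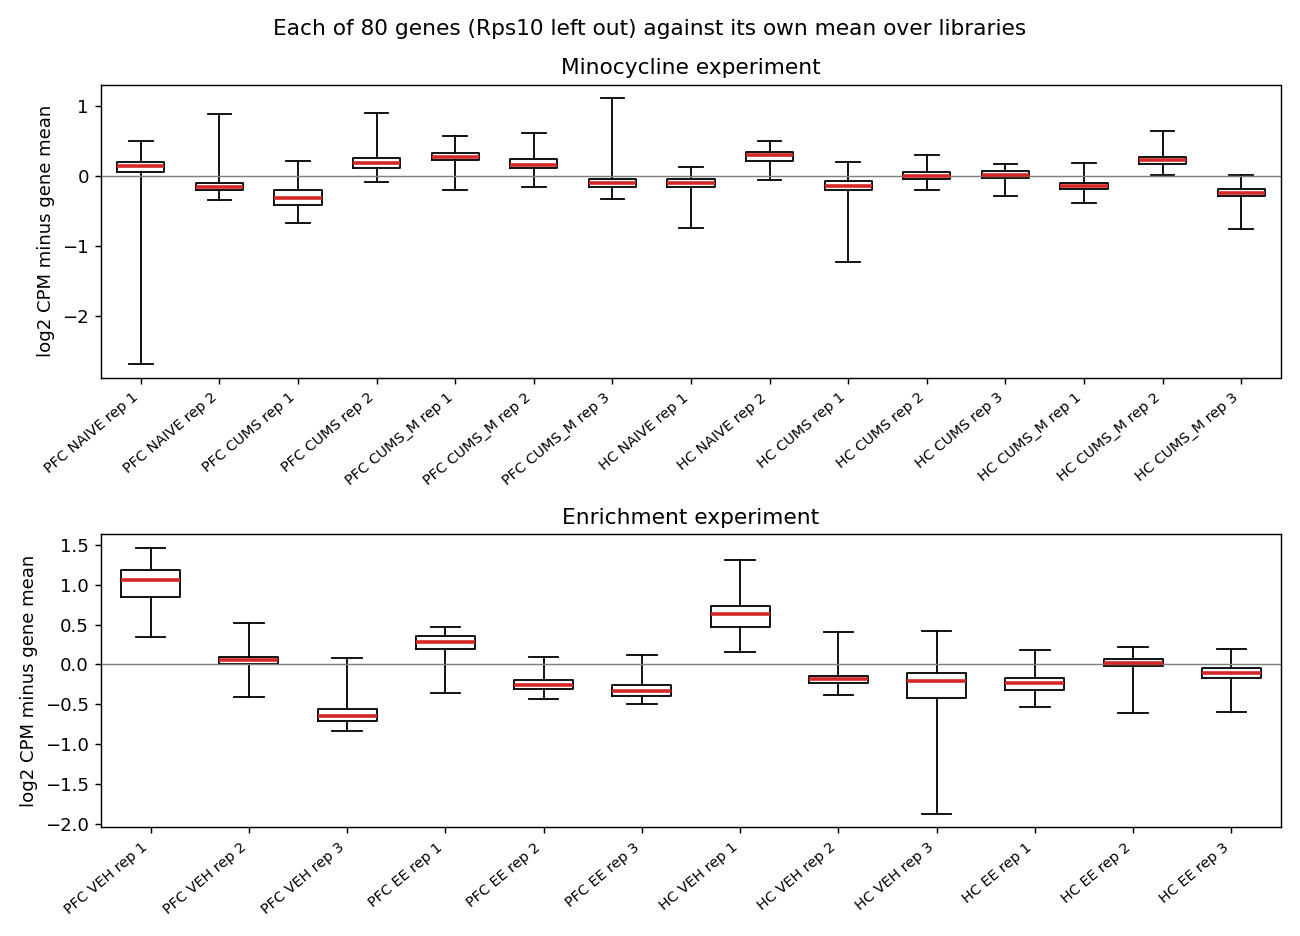
Log2 CPM of each of 80 genes minus its own mean over the libraries of its experiment (y axis), as 1 box per library; boxes span the quartiles, red lines are medians and whiskers reach the lowest and highest gene. PFC VEH library 1 sits at a median of 1.06 and PFC VEH library 3 at -0.65.

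As a description, a member's Pearson correlation with the mean of the other members had a median of 0.982 over the 12 enrichment libraries, with 73 of 81 genes above 0.9. Over the 15 minocycline libraries the median was 0.927, with 53 of 81 above 0.9. The points share library depth and scaling, and group differences are part of them. In the enrichment experiment the SD of log2 CPM over libraries had a median of 0.469 for the members. It was 0.156 for a wider set of 2713 tested genes. That set takes all genes, members included, that were at least as abundant as members near the low end of the family. In the minocycline experiment the medians were 0.220 for the members and 0.131 for 1743 such genes. The members thus had a higher median SD between libraries than this wider set in both tables.

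Genes outside the family with short coding sequences (at most 600 bases) deviated in the same libraries, by less. Their median deviation was 0.32 in PFC VEH library 1, 0.19 in HC VEH library 1 and -0.16 in PFC VEH library 3. In the minocycline experiment it was -0.08 in PFC CUMS library 1 and 0.14 in HC NAIVE library 2. Mitochondrial transcripts took 0.856% of counts in PFC VEH library 1, 1.03% in HC VEH library 1 and 0.531% in PFC VEH library 3. The highest value of that experiment, 1.97%, was in HC VEH library 3, where the members were low. The Pearson correlation of the mitochondrial share with the members' median deviation was 0.175 over the 12 enrichment libraries. It was 0.569 over the 15 minocycline libraries. Choroid plexus markers were at 0.644 CPM in PFC VEH library 1 and 0.613 CPM in HC VEH library 1, the lowest of their groups. Neuron markers were at 66.1 and 48.5 CPM, the highest. Also highest of their groups there were microglial (53449 and 50441 CPM), astrocyte (675 and 588), neutrophil (1106 and 2144) and erythroid markers (58.7 and 63.8). The oligodendrocyte, endothelial, border macrophage and immediate early lists were not highest in both. In the EE groups, neuron markers were also highest in library 1 of PFC (46.4 CPM) and of HC (41.3 CPM). The members' median deviation was the highest of its group in PFC EE library 1 (0.28) and the lowest in HC EE library 1 (-0.23). Astrocyte markers were the lowest of their group in PFC EE library 1 (447 CPM) and the highest in HC EE library 1 (996 CPM). The part of RNA length, RNA quality or these cells in the members' shifts was not tested.

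Among the members the size of the swing went with coding length. The 4 genes with few counts or shared exons (Rpl39l, Rpl24, Rpl13a and Rps10) were set aside for this description, a choice made after their values were seen. Of the other 77, the 27 with at most 400 coding bases had a median range over libraries (highest minus lowest log2 CPM) of 1.91 in the enrichment experiment, and the 22 with more than 600 had 1.37. The medians were 0.81 and 0.54 in the minocycline experiment. Spearman's rho between range and coding length was -0.650 and -0.757, respectively, across genes that share the same libraries and are not independent replicates. Rpl4, among the longest members, had ranges of 0.85 and 0.37. Rps21, among the shortest, had ranges of 2.23 in the enrichment experiment, from 141 CPM in PFC VEH library 3 to 664 CPM in PFC VEH library 1.

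**Figure D3:**
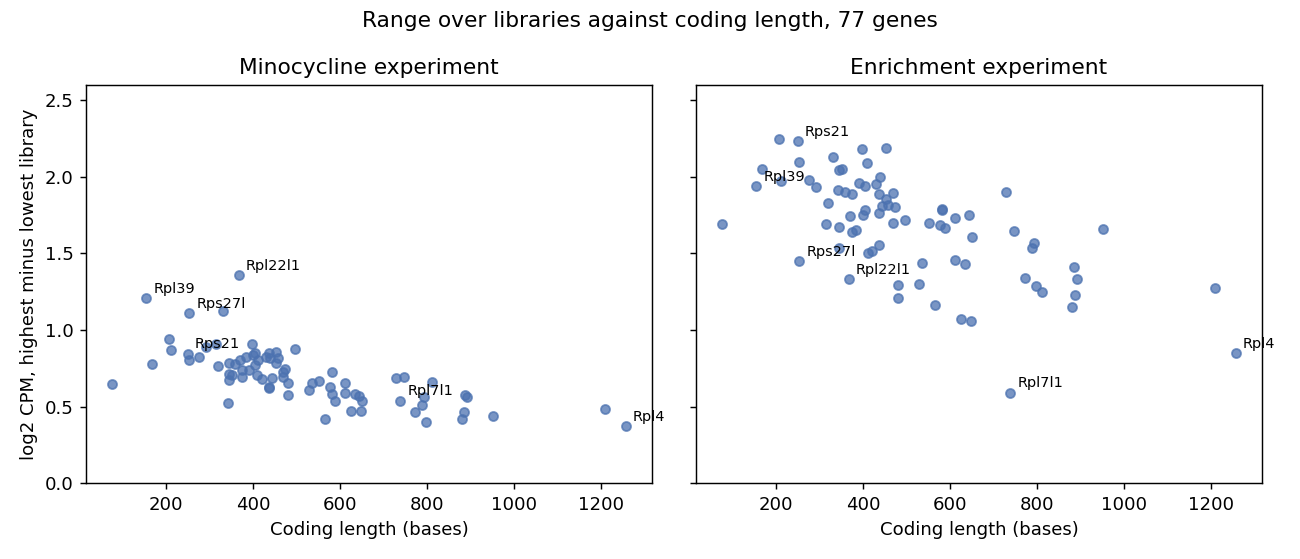
Range of log2 CPM over the libraries of an experiment (y axis, highest minus lowest) against coding length in bases (x axis) for 77 members, 1 point per gene. Median ranges fall from 1.91 (up to 400 bases) to 1.37 (over 600 bases) in the enrichment experiment and from 0.81 to 0.54 in the minocycline experiment.

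Levels between genes were compared as CPM per kilobase of the principal transcript. Rplp1, an acidic stalk protein that helps recruit elongation factors, had the highest level in both tables, at 2142 ± 269 CPM per kb over the 15 minocycline libraries and 1254 ± 523 over the 12 enrichment libraries (SD). It was followed by Rps29 (1425 ± 227), Rps9 (1287 ± 182), Rps27 (1228 ± 218) and Rps15 (1014 ± 127) in the minocycline table. In the enrichment table the next were Rps9 (926 ± 365), Rps27 (838 ± 412), Rps29 (800 ± 396) and Rps15 (698 ± 225). The order of neighbours such as Rps9 and Rps27 differed by less than their SD over libraries.

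The lowest members per kilobase included the paralogues Rpl39l (1.36 ± 0.725 CPM per kb in the minocycline table and 0.655 ± 0.373 in the enrichment table) and Rpl22l1 (23.9 ± 7.12 and 23.6 ± 6.47). Rpl24 (9.03 ± 2.03 and 8.97 ± 3.73) and Rpl13a (17.8 ± 1.96 and 18.8 ± 3.23), which encode ordinary large-subunit proteins, were also at this end. For those 2 genes the annotation offers a measured fact: 47.0% of the exon bases of Rpl24 and 35.4% of those of Rpl13a are also exons of another gene on the same strand (Gm28037 and chiefly Gm45713), and both other genes hold 0 counts in every library of both tables. Over the family, 60 of 81 genes have at least 1 named pseudogene in the annotation (292 in all), so reads could be split or lost between near copies. Rpl24 itself has 0 named pseudogenes and Rpl13a has 1. The low levels of Rpl24 and Rpl13a are uncertain, and the part of shared exons or gene copies in them was not tested.

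For the enrichment experiment the question was whether enrichment shifts these genes in stressed mice. By the group names VEH had vehicle and EE had enrichment, so the parts of enrichment and vehicle cannot be told apart. In the PFC all 81 members had a log2 fold change below 0 in EE against VEH, with a median of -0.40, against -0.02 over all 15921 tested genes. The large-subunit genes had a median of -0.33 and the small-subunit genes of -0.45. edgeR's quasi-likelihood test called 0 of the 81 (smallest adjusted p = 0.986), and DESeq2 also called 0; before adjustment, 0 of the 81 were under 0.05 in edgeR. The background was 0% of tested genes called by edgeR and 0.107% by DESeq2. The groups overlapped for each of the 81, while 9.19% of all tested genes did not overlap.

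The stalk genes show how the libraries lay. Rplp0, the scaffold of the stalk, had 1025, 553 and 324 CPM in the VEH libraries and 680, 451 and 416 CPM in the EE libraries. Rplp1 had 1294, 643 and 343 CPM in VEH and 778, 481 and 435 CPM in EE, and Rplp2 had 795, 369 and 193 CPM in VEH and 425, 278 and 254 CPM in EE. In each of them VEH library 1 was the highest of the 6 and VEH library 3 the lowest, so the EE libraries lay inside the VEH range. Their log2 fold changes were -0.30 ± 0.37, -0.43 ± 0.42 and -0.50 ± 0.45 (SE), with adjusted p of 0.986 to 0.990 from edgeR.

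Rpl39, a very small large-subunit protein at the exit tunnel, had the largest fall, with 177, 67.2 and 46.0 CPM in VEH and 63.6, 52.6 and 51.1 CPM in EE. That is a log2 fold change of -0.79 ± 0.47 (SE), from 96.7 ± 70.2 to 55.8 ± 6.85 CPM (SD, n = 3 each; edgeR adjusted p = 0.986). Rpl13a had the value nearest 0, -0.05 ± 0.19, and Rpl4 followed at -0.06 ± 0.20. Again VEH library 1 alone exceeded the EE libraries by a wide margin for Rpl39.

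The direction depended on a single library. Without PFC VEH library 1 the median of the 81 became 0.19 with 76 genes above 0. Without PFC VEH library 3 it became -0.70 with 0 above 0, and none passed the adjusted threshold. The libraries with equal numbers deviated together in this comparison, and with the replicate number as a block the median was -0.30 and 0 genes were called. Beside this, erythroid markers summed to 31.5 to 58.7 CPM in VEH and 202 to 1004 CPM in EE, and immediate early genes, which rise on tissue dissociation, to 9821 to 18308 and 18155 to 29218 CPM. Their part in the members' values was not tested.

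In the HC 75 of 81 members had a log2 fold change below 0 in EE against VEH, with a median of -0.23, against -0.03 over all tested genes. edgeR called 0 (smallest adjusted p = 0.754) and DESeq2 called 0, with 0 under 0.05 before adjustment in edgeR. Of all tested genes edgeR called 0% and DESeq2 2.77%. None of the 81 had groups that did not overlap, against 16.0% of tested genes. Rplp1 had 911, 523 and 519 CPM in VEH and 474, 596 and 511 CPM in EE, a log2 fold change of -0.31 ± 0.42 (SE, adjusted p = 0.869). VEH library 1 was the highest, and the remaining 5 libraries were mixed. Without HC VEH library 1 the median turned to 0.09 with 59 genes above 0. Erythroid markers were again 42.9 to 63.8 CPM in VEH and 354 to 826 in EE, and choroid plexus markers 0.613 to 215 and 515 to 1994 CPM. Astrocyte markers were at 459 to 588 CPM in VEH and 713 to 996 in EE, oligodendrocyte markers at 238 to 308 and 462 to 824, and border macrophage markers at 339.97 to 439.56 and 573 to 789. The part of these lists was not tested.

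Rpl39l, known best from testis, had the largest fall in the HC at -0.71 ± 0.69 (SE), on 4 to 28 counts a library. Rpl24 had the largest rise at 0.09 ± 0.49. Neither passed, with adjusted p of 0.804 and 0.972 from edgeR.

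The difference of the enrichment effect between regions had a median of 0.14 (77 of 81 above 0). Neither edgeR nor DESeq2 called a member (0 each, and 0 under 0.05 before adjustment in edgeR), and the background was 0% in both tools. Without PFC VEH library 1 it was -0.45. The HC against PFC comparison in this experiment had a median of -0.11 (5 of 81 above 0), with 0 called by either tool, 0 at an unadjusted p under 0.05 in edgeR and 0% of all tested genes called by either tool. No member separated the regions without overlap, against 0.0942% of tested genes. Its median ran from -0.26 without HC VEH library 1 to 0.18 without PFC VEH library 1.

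**Figure D4:**
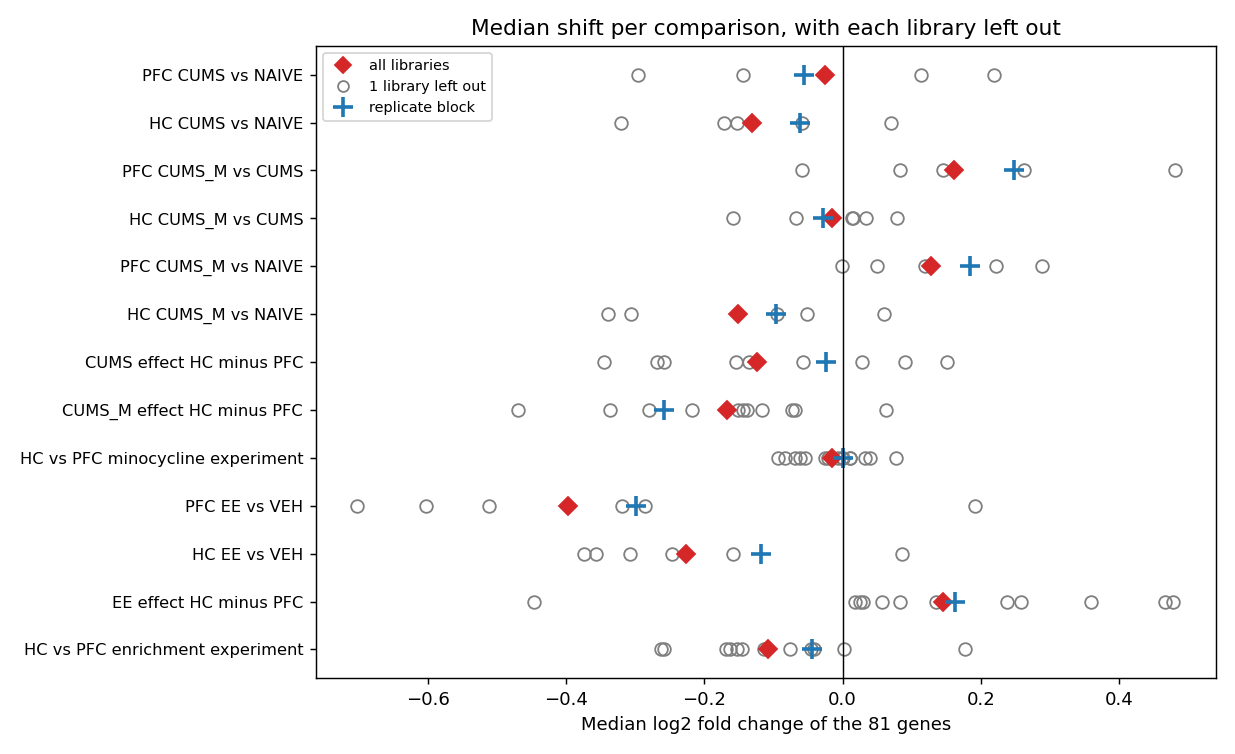
Median log2 fold change of the 81 genes (x axis) for each comparison (y axis) with all libraries (red diamonds), with 1 library left out at a time (open circles), and with the replicate number as a block (blue crosses). In every comparison except PFC CUMS_M against NAIVE the open circles lie clearly on both sides of 0; there the lowest is -0.00011.

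In the minocycline experiment, CUMS against NAIVE asks what the stress protocol does. In the PFC the members had a median log2 fold change of -0.03 (31 of 81 above 0), against 0.02 over all 14579 tested genes. edgeR called 0 members, where 0.816% of tested genes were called, and DESeq2 called 1, Rps27l, where it called 2.39% of genes. The members with an unadjusted p under 0.05 were 2, Rps27l and Rpl7l1. They were also the 2 whose groups did not overlap, against 43.6% of tested genes. The median was 0.22 without PFC CUMS library 1 and -0.30 without PFC CUMS library 2. Either fit leaves a single PFC CUMS library. Astrocyte markers summed to 772 to 850 CPM in CUMS and 234 to 274 in NAIVE, and neutrophil markers to 1584 to 2091 and 3022 to 4301 CPM. Microglial markers were at 48487 to 51745 CPM in CUMS and 56470 to 60499 in NAIVE, endothelial markers at 205 to 249.6 and 94.4 to 119, border macrophage markers at 581 to 736 and 406 to 448, and immediate early genes at 11168 to 13268 and 8919 to 11135. The part of these lists was not tested.

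Rps27l is a paralogue of the small-subunit gene Rps27 and a known p53 target. It had 29.8 and 26.5 CPM in the PFC NAIVE libraries, 13.7 and 19.8 in CUMS, and 21, 18.8 and 20.8 in CUMS_M. Both NAIVE libraries lay above the 5 stressed ones. CUMS against NAIVE gave 16.7 ± 4.28 against 28.1 ± 2.33 CPM (SD, n = 2 each) and a log2 fold change of -0.75 ± 0.21 (SE), with an adjusted p of 0.100 in edgeR, which misses the threshold. DESeq2 gave 0.0422 and edgeR without the count filter 0.0390, so the call depends on the tool and, within edgeR, on the filter. With a library left out, PFC CUMS or PFC NAIVE holds a single library, and the adjusted p-values of those fits are not given.

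The parent gene did not follow it. Rps27 had 413 and 346 CPM in PFC NAIVE and 319 and 502 CPM in PFC CUMS, a log2 fold change of 0.11 ± 0.28 (SE, edgeR adjusted p = 0.895), with overlapping groups. CUMS_M against NAIVE gave -0.48 ± 0.19 for Rps27l (adjusted p = 0.290 in edgeR, 0.233 in DESeq2). In the HC Rps27l had 20.2 and 23.0 CPM in NAIVE and 18.5, 24.8 and 22.4 in CUMS, which overlap, and a log2 fold change of 0.02 ± 0.19. The difference of the CUMS effect between regions was 0.77 ± 0.28 for Rps27l (adjusted p = 0.643 in edgeR), which did not pass. In the enrichment experiment its levels were 29.3, 17.5 and 10.7 CPM in PFC VEH and 14, 17.1 and 15 in PFC EE.

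Rpl7l1, a paralogue of Rpl7, had 76.1 and 97.4 CPM in PFC NAIVE and 111 and 102 CPM in PFC CUMS, a log2 fold change of 0.30 ± 0.13 (SE, edgeR adjusted p = 0.319). In the HC its NAIVE libraries, 105 and 110 CPM, lay above the 3 CUMS libraries at 102, 95.4 and 94.9 CPM, with -0.14 ± 0.12 (adjusted p = 1.0). It swung little between libraries and correlated weakly with the other members in the minocycline table (r = 0.184 over 15 libraries). In the enrichment experiment it deviated from its own mean log2 CPM in the family's direction in the most extreme libraries. The values were 0.34 in PFC VEH library 1, 0.25 in HC VEH library 1 and -0.25 in PFC VEH library 3.

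In the HC, CUMS against NAIVE had a median of -0.13 with 6 of 81 above 0, against -0.01 over all tested genes. edgeR and DESeq2 called 0, and edgeR gave 0 at an unadjusted p under 0.05. Of all tested genes edgeR called 0% and DESeq2 0.00686%. In all, 5 members did not overlap between the groups, all lower in CUMS, where 20.4% of tested genes did not overlap. They were Rpl39l, Rpl7l1, Rpl7a, Rpl10a and Rps13, and their names were looked up after the values were seen. The median turned to 0.07 without HC NAIVE library 2 and became -0.32 without HC NAIVE library 1. Either fit leaves a single HC NAIVE library. Rpl39l had the largest fall, -0.87 ± 0.92 (SE), on 4 to 16 counts a library. Astrocyte markers summed to 508 to 583 CPM in CUMS and 313 to 389 in NAIVE, oligodendrocyte markers to 656 to 810.2 and 477 to 482, neuron markers to 26.9 to 31.9 and 24.4 to 26.1, and neutrophil markers to 151 to 421 and 668 to 1437 CPM. Their part in the members' values was not tested.

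Minocycline was compared with CUMS alone to ask what the drug changes. In the PFC 77 of 81 members had a log2 fold change above 0 in CUMS_M against CUMS, with a median of 0.16, against 0.02 over all tested genes. edgeR called 0, where 0.0206% of tested genes were called, and DESeq2 called 0, where it called 0.501%. Before adjustment 2 members, Rpl11 and Rpl21, were under 0.05 in edgeR. In all, 3 members did not overlap, against 21.0% of tested genes: Rpl24 and Rpl11 were higher and Rpl7l1 lower in CUMS_M, and Rpl11 and Rpl21 are named after their values were seen. Without PFC CUMS library 1 the median became -0.06, and without PFC CUMS library 2 it became 0.48 with 80 of 81 above 0. Each of these fits leaves a single PFC CUMS library. Astrocyte markers summed to 772 to 850 CPM in CUMS and 313 to 514 in CUMS_M, endothelial markers to 205 to 249.6 and 92.6 to 121, oligodendrocyte markers to 664 to 702 and 256 to 383, and neuron markers to 53.3 to 57.2 and 29.0 to 49.9 CPM. Their part was not tested.

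Rplp1 shows the pattern, with 867 and 1224 CPM in the CUMS libraries and 1231, 1145 and 1003 CPM in CUMS_M. The first CUMS library was low and the second lay at the top of the CUMS_M range. Its log2 fold change was 0.11 ± 0.17 (SE, edgeR adjusted p = 1.0). Rpl24 had the largest rise at 0.50 ± 0.31, from 5.47 and 6.03 CPM to 8.03, 9.17 and 7.15 CPM (adjusted p = 1.0). Rpl13a had the largest fall at -0.17 ± 0.18.

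CUMS_M against NAIVE in the PFC, which shares the CUMS_M libraries with the preceding comparison, had a median of 0.13 (76 of 81 above 0). edgeR called 0, where 0.0892% of tested genes were called, 1 member (Rps27l) was under 0.05 before adjustment, and DESeq2 called 0, where it called 1.01% of genes. The groups of 3 members did not overlap, against 25.2% of tested genes. The median was -0.00011 without PFC NAIVE library 2 and 0.29 without PFC NAIVE library 1. Either fit leaves a single PFC NAIVE library. Microglial markers summed to 48469 to 56201 CPM in CUMS_M and 56470 to 60499 in NAIVE, astrocyte markers to 313 to 514 and 234 to 274, and immediate early genes to 12079 to 19325 and 8919 to 11135 CPM. Their part was not tested.

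In the HC, CUMS_M against CUMS had a median of -0.02 (35 of 81 above 0). edgeR called 0, where 0.00686% of tested genes were called, and DESeq2 called 1, Rps10, where it called 0.533% of the genes it gave an adjusted p (76 of the 81 members had one). Rps10 was also the 1 member with an unadjusted p under 0.05 in edgeR. The groups of 2 members did not overlap, Rps10 lower and Rpl39l higher in CUMS_M, against 10.3% of tested genes. For Rpl39l the groups nearly touched. The lowest CUMS_M library had 0.880 CPM (12 counts) and the highest CUMS library 0.878 CPM (13 counts). Rpl39l had the largest rise, 0.83 ± 0.83 (SE), on 4 to 20 counts a library. The median was -0.16 without HC CUMS_M library 2 and 0.08 without HC CUMS_M library 3. Neuron markers summed to 19.6 to 26.6 CPM in CUMS_M and 26.9 to 31.9 in CUMS, immediate early genes to 4569.9 to 6050.3 and 7153 to 15595, and erythroid markers to 27.7 to 68.5 and 80.8 to 214 CPM. Their part was not tested.

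CUMS_M against NAIVE in the HC had a median of -0.15 with 1 of 81 above 0. edgeR and DESeq2 called 0, and 2 members had an unadjusted p under 0.05 in edgeR. Of all tested genes edgeR called 0% and DESeq2 0.00686%. The groups of 2 members, Rpl7l1 and Rps10, did not overlap, against 17.7% of tested genes. Without HC NAIVE library 2, which leaves a single HC NAIVE library, the median became 0.06 with 63 above 0. Erythroid markers summed to 27.7 to 68.5 CPM in CUMS_M and 119 to 138 in NAIVE, and their part was not tested.

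The difference of the CUMS effect between regions had a median of -0.12 (15 of 81 above 0). edgeR and DESeq2 called 0 members, and edgeR gave 2 at an unadjusted p under 0.05. Of all tested genes edgeR called 0% and DESeq2 0.205%. For the CUMS_M against CUMS effect the difference had a median of -0.17 (3 of 81 above 0), with 0 members called by either tool, 1 at an unadjusted p under 0.05 in edgeR (Rps10), and 0.00686% of tested genes called by edgeR and 0.0316% by DESeq2. DESeq2 gave 79 of the 81 members an adjusted p there. Both turned with PFC CUMS libraries: the first to 0.15 without library 2 and the second to 0.06 without library 1. Each such fit leaves a single PFC CUMS library.

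HC against PFC in the minocycline experiment was the only comparison in which edgeR, with the count filter and all libraries, called a member. The median was -0.01 (32 of 81 above 0), and edgeR called 1 member, Rps10, where it called 5.10% of tested genes. Rps10 was also the 1 member that did not overlap between regions, against 1.25% of tested genes. Without Rps10, 0 of the 80 remaining members passed in edgeR. Before adjustment 2 of them (Rpl39 and Rpl29) were under 0.05, and DESeq2 called 1, Rpl39. DESeq2 called 8.05% of genes in this comparison.

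Rps10 encodes a small-subunit protein on the ribosome's head and lies at chr17:27630418-27636669 on the minus strand of GRCm38. It had 2159 to 3941 counts in the 7 PFC libraries of the minocycline experiment and 28 to 93 counts in the 8 HC libraries. In CPM that is 310 ± 51.7 (SD, n = 7) against 3.98 ± 1.33 (n = 8), a log2 fold change of -6.30 ± 0.15 (SE, adjusted p = 3.21e-13 in edgeR). The regions were apart by far more than the spread within either. In the enrichment experiment, by contrast, Rps10 was low in both regions, with 90 to 235 counts in PFC and 75 to 200 in HC, and the regions overlapped (log2 fold change -0.29 ± 0.24, edgeR adjusted p = 1.0).

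**Figure D5:**
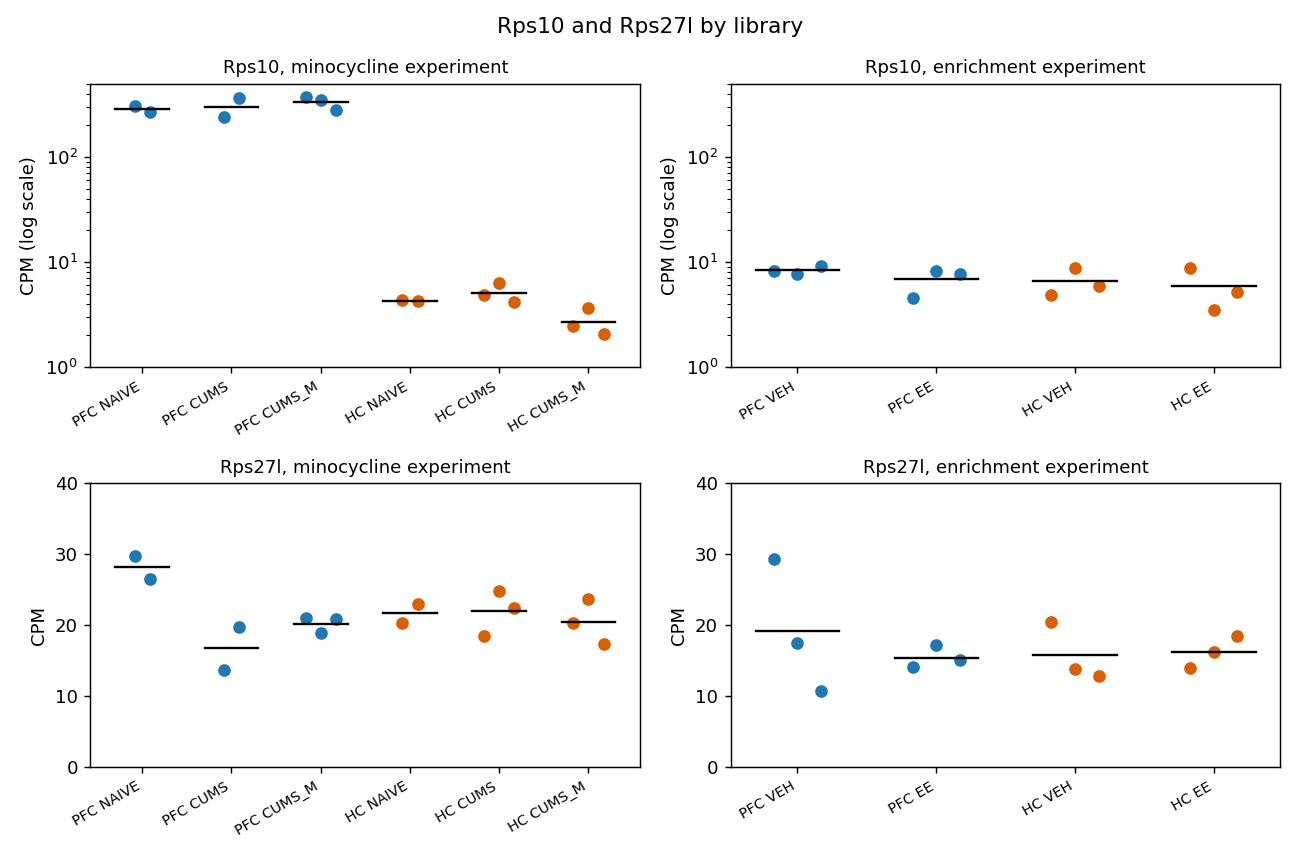
CPM of Rps10 (top, log scale) and Rps27l (bottom, linear from 0) in every library, by group, with group means as lines (blue PFC, orange HC). Rps10 lies at 239 to 371 CPM in the PFC libraries of the minocycline experiment and at 2.05 to 9.18 CPM in all other libraries, and Rps27l is highest in the PFC NAIVE libraries of that experiment.

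Rps10 was not alone in this. In the minocycline table a set of 16 tested genes differed between regions by more than 8-fold with no library crossing over, 11 higher in PFC and 5 higher in HC, and 13 of the 16 were also tested in the enrichment experiment. None of those 13 had means that far apart on the same side there, and the other 3 were not compared. Myl12b, a myosin light chain gene named here after its values were seen, had 146 to 175 CPM in PFC and 4.22 to 7.0 in HC, and means of 7.75 and 8.37 CPM in the PFC and HC of the enrichment experiment. Of the 16, 12 share exon bases with another gene on the same strand, against 8.46% of all tested genes. For Rps10 the shared part is 20.6% of its exon bases, with the readthrough gene RPS10-NUDT3 (chr17:27580780-27635222), which has a row at 0 counts in the enrichment table and no row in the minocycline table. Nudt3 itself had 588 to 1093 counts in PFC and 706 to 973 in HC of the minocycline experiment. These are raw counts, and library totals there were 7.87 M to 12.4 M in PFC and 11.8 M to 15.3 M in HC. Whether the libraries of both regions were counted with the same gene models is not given in the sources used here, and its part in the Rps10 difference was not tested.

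Within the HC, where few counts were assigned to it, Rps10 had 4.81, 6.28 and 4.11 CPM in CUMS, 2.47, 3.61 and 2.05 in CUMS_M, and 4.33 and 4.21 in NAIVE. The 3 CUMS_M libraries lay below all others. CUMS_M against CUMS was -0.91 ± 0.26 (SE), from 5.07 ± 1.11 to 2.71 ± 0.805 CPM (SD, n = 3 each), with an adjusted p of 0.757 in edgeR, 0.0320 in DESeq2 and 4.74e-05 in edgeR without the count filter. In the PFC Rps10 had 239 and 366 CPM in CUMS and 371, 347 and 280 in CUMS_M, which overlap.

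Rpl39 was the next member by region, with a log2 fold change of -0.51 ± 0.15 (SE) from 132 ± 22.2 CPM in PFC (SD, n = 7) to 89.7 ± 20.1 in HC (n = 8). Its PFC values ran from 89.1 to 156 CPM with a median of 139, and its HC values from 67.4 to 128, so the regions overlapped. The adjusted p was 0.0870 in edgeR, 0.00268 in DESeq2, 0.00909 with the replicate block and 0.0436 without PFC CUMS library 1. In the enrichment experiment the regional difference was 0.08 ± 0.33 (SE), the other way. Rpl29, named after its values were seen, had -0.21 ± 0.08 in the minocycline experiment (adjusted p = 0.113 in edgeR and 0.0485 without the count filter).

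In the paralogue pairs, the levels per kilobase of transcript of the partner and its paralogue did not overlap in either table. Rpl22 had 312 to 553 CPM per kb and Rpl22l1 13.5 to 35.2 over the minocycline libraries, and 195 to 612 and 15.1 to 38.3 over the enrichment libraries. Rpl7 had 311 to 493 and Rpl7l1 29.2 to 42.4 CPM per kb in the minocycline table, and 233 to 553 and 32.6 to 49.1 in the enrichment table. For Rpl39 and Rpl39l the ranges were 110.1 to 254 and 0 to 2.71 CPM per kb in the minocycline table. Rps27 and Rps27l had 926 to 1619 and 27.5 to 59.7 there. Rps4x, on the X chromosome, had no paralogue among the members, since Rps4l is annotated as a pseudogene. Rpsa, which also names a laminin receptor, followed the family, with 604, 366 and 227 CPM in PFC VEH and 448, 307 and 266 in PFC EE (log2 fold change -0.23 ± 0.32, edgeR adjusted p = 0.993).

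Other genes of the translation machinery were read from lists. Of 15 elongation factor and other TOP genes, 22 ribosome biogenesis genes and 18 mTORC1 pathway genes, edgeR and DESeq2 called 0 in each treatment comparison and in the enrichment experiment's regional comparison. At most 3 genes of a list were under 0.05 before adjustment in any comparison. The 1 call, by both tools, was Npm1, a nucleolar chaperone on the TOP list, lower in HC than PFC in the minocycline experiment (-0.30 ± 0.07 SE, adjusted p = 0.0244), where edgeR called 5.10% of tested genes. In PFC EE against VEH, where the members had a median of -0.40, the medians were -0.17 for the TOP, 0.07 for the biogenesis and 0.08 for the mTORC1 genes. In PFC CUMS_M against CUMS, where the members had 0.16, they were 0.07, 0.08 and 0.03.

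The non-members most like the members' mean log2 CPM were Fau (r = 0.973), Tpt1 (0.954), Eef1b2 (0.936), Minos1 (0.919) and Cox7a2l (0.917) over the 15 minocycline libraries. Over the 12 enrichment libraries they were Eef1b2 (0.996), Fau (0.986), Ubl5 (0.986), Cox7a2l (0.984) and Ergic3 (0.983). Fau encodes a precursor of a small-subunit protein, Eef1b2 an elongation factor subunit and Cox7a2l a mitochondrial respiratory protein.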

How the data were processed

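CD11b+ cell RNA was measured in 27 libraries. The deposited files hold raw counts per gene made by the authors; per the submitters' processing notes the tools were Trimmomatic 0.36, STAR 2.6.1b, Picard 2.17.1, featureCounts 1.5.3 and DESeq2 1.24.0, with mm10/GRCm38. The gene models, strand setting and treatment of multiply mapped reads are not given in the sources used here, although the library kit was strand-specific per the labels' design text. Loss of reads to gene copies and shared exons can therefore affect single members.

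Identifiers were matched to GENCODE M21 symbols (53412 of 53412 in the minocycline table, 55240 of 55421 in the enrichment table). Each table was filtered with filterByExpr (minimum count 10, minimum total 15; 14579 and 15921 genes), scaled by TMM and fitted with edgeR's quasi-likelihood test over all its groups, with no covariate; p-values were Benjamini-Hochberg adjusted over all tested genes and a gene was called at an adjusted p under 0.05. Shares called by DESeq2 are of the genes it gave an adjusted p. CPM use the TMM-scaled library size, and log2 CPM a prior count of 2. The members, lists and rules were chosen with earlier results of these data known. Genes were named by rule: in each comparison the called members and those with the largest rise and fall, the stalk and paralogue genes and Rpsa, the 5 highest and 5 lowest per kilobase, and the 5 non-members most like the family; others are marked as named after their values were seen. The lists cover TOP, biogenesis, mTORC1, microglial, astrocyte, endothelial, oligodendrocyte, neuron, choroid plexus, neutrophil, border macrophage, immediate early and erythroid genes; 1 further list is not reported here.

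In PFC, the deviations of same-numbered EE and VEH libraries from the group mean were correlated (r = 0.359, 0.198 and 0.208), a pairing read from the data, not from labels; no other comparison did so for every pair. No replicates were closer than sampling noise (chi-square per degree of freedom 5.99 to 113). In tests on simulated data edgeR recovered 50 of 100 genes changed 2-fold and 63 of 100 changed 4-fold for PFC CUMS against NAIVE. It recovered 59 and 74 in HC for minocycline (CUMS_M against CUMS). For enrichment in HC (EE against VEH) it recovered 55 and 80. Unchanged genes called numbered 7, 10 and 7, in the same order. The changed genes were drawn from all tested genes, each independently and without a shift shared by a library. The recovery therefore does not describe the members, which moved together. Alternatives were DESeq2 size factors, scaling without the members, no count filter, the replicate block, DESeq2's Wald test, a fit of only the compared groups, each library left out and, added after seeing the data, Rps10 left out. Software: edgeR 4.0.16 and limma 3.58.1, with DESeq2 1.42.0, in R 4.3.3; figures with matplotlib 3.10.9 in Python 3.11.15.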

Additional observations from a re-analysis of the deposited data

How the results depend on the processing

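Counts of called members stayed at the value reported in 98 of 101 fits with a library left out and in 67 of 76 other fits. Without the count filter, 1 member was called in PFC CUMS against NAIVE (Rps27l), 1 in HC CUMS_M against CUMS (Rps10), 1 in the difference of that effect between regions (Rps10) and 2 in HC against PFC of the minocycline experiment (Rps10 and Rpl29). DESeq2 called 1 (Rps27l), 1 (Rps10), 0 and 2 (Rps10 and Rpl39) in the same comparisons. With the replicate number as a block, HC against PFC of the minocycline experiment had 2 calls (Rps10 and Rpl39), and no other count changed. It was 1 to 2 with a library left out and 0 with Rps10 left out. For the fits without the count filter and with the block, the share of all genes called is not reported here. Their calls thus stand without a background. For all calls in this paragraph the cause was not tested.

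Medians moved beyond the replicate spread in 7 of 101 fits with a library left out and in 0 of 75 others. The ranges were -0.321 to 0.0708 for HC CUMS against NAIVE, -0.0594 to 0.48 for PFC CUMS_M against CUMS, -0.345 to 0.151 for the regional difference in the CUMS effect, -0.470 to 0.0625 for that in the CUMS_M effect and -0.446 to 0.478 for that in the EE effect. Scaling without the members moved the 13 medians by at most 0.014 and turned none (0). With 2 or 3 libraries a group, the median SE over members was 0.17 to 0.38 within a region, and each median except that of PFC EE against VEH was smaller than the median SE of its comparison. Depth limits Rpl39l (0 to 28 counts a library).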
